A study of Mus musculus with 18 samples.

Results

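The comparison of resting CD8 T cells with resting Th2 cells set 1 RNA-seq library against 1 other. Its members were chosen by level alone: a gene entered if its normalised reads averaged 50 or more over the pair. This kept 10902 of the 43432 genes in the deposited table, of which 20547 had a value above 0 in either library. The question was which RNAs differ between cytotoxic and type 2 helper T cells when neither is restimulated. The series held 18 mouse samples, 10 of them maps of protein-bound RNA (GCLiPP, global cross-linking and protein purification) and 8 RNA-seq libraries, 1 for each combination of cell type, restimulation and actinomycin D, an inhibitor of RNA synthesis.

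Both libraries came from T cells of mice labelled C57BL/6 (C57BL/6 J in the study's methods), and those methods name peripheral lymph nodes and spleen as their source. Per the methods CD4 cells were taken by positive and CD8 cells by negative bead selection, and a further sort of naive cells is not described in the sources used here. Per the labels both were grown for 5 days on plates with antibodies to CD3 and CD28 (the study's methods move them to uncoated dishes before the end), placed in fresh medium without restimulation 4 h before harvest, and irradiated at 254 nm with 8000 mJ. Resting therefore means activated, expanded cells that received no further stimulus. CD8 cultures held IL-12 and IL-2, and Th2 cultures held IL-4, an antibody that blocks interferon gamma, and IL-2. Cell type, the cytokines added and the mode of selection differed together and cannot be told apart. The stimulated libraries set beside these below came from cells given PMA and ionomycin, drugs that imitate signals of the T cell receptor, and the labels do not give the age or sex of the animals, whether animals were pooled, or the time of actinomycin D. The study's methods describe mouse T cells cultured from several mice and several times of actinomycin D, without tying a time to these libraries.

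CD8 T cells recognise peptides on MHC class I and kill target cells with perforin and granzymes, proteases stored in secretory granules. Under IL-12 the factor T-bet and the interferon gamma gene are part of their programme. Th2 cells are CD4 T cells in which IL-4 acts through STAT6 on the factor GATA3, and they make IL-4, IL-5 and IL-13, the cytokines of barrier immunity and allergy. T-bet and GATA3 oppose each other, and RUNX3 and ThPOK (Zbtb7b) do so in the choice between the CD8 and CD4 coreceptors.

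The values are the authors' read counts per gene divided by 1 size factor per library, called normalised reads here. They are not divided by length, so levels of different genes are not compared on this scale. Whole reads could be recovered from the steps between values, 24687869 in the CD8 and 31042504 in the Th2 library, and all 8 libraries lay between 24154849 and 31042504. Differences are given as log2(normalised reads + 1) in CD8 minus the same in Th2 cells, positive where CD8 is higher, and folds are on that scale. With 1 library a side there is no replicate check and no test. The 95% intervals given with single genes come from the recovered reads alone (exact conditional binomial) and cover counting error only, not the spread between cultures.

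The libraries carried most markers of their labels, with exceptions on each side. Cd3e, a signalling chain of the T cell receptor, was at 5259 in CD8 and 4973 in Th2 cells, and 0 of 8 general T cell markers differed 2-fold. Cd4, the coreceptor of helper cells (chromosome 6, 124864692 to 124888221 in mm10), was at 25.9 in CD8 and 21518 in Th2 cells. The reverse did not hold to that degree for the coreceptor of cytotoxic cells: Cd8a (chromosome 6, 71373427 to 71379171) was at 10516 in CD8 and 1331 in Th2 cells and Cd8b1 at 6269 in CD8 and 1402 in Th2 cells, so that the Th2 library held 12.7% and 22.4% of the CD8 level. In bulk RNA, fewer cells of a type and less RNA per cell cannot be told apart. Of the CD8 markers 3 of 3 and of the Th1 markers 6 of 6 were 2-fold or more higher in CD8 cells. Over all members 4.96% were 2-fold or more higher in CD8 and 8.61% in Th2 cells. Of 3 CD4 markers 2 were higher in Th2 cells, and Zbtb7b (-0.92) lay within 2-fold. Of 6 cytotoxic markers 3 were higher in CD8 cells, 1 (Gzma) in Th2 cells, and 2 (Prf1 and Eomes) lay within 2-fold. Of the 8 Th2 markers that were members, 7 were 2-fold or more higher in Th2 cells and 1, Il1rl1, was higher in CD8 cells. Cd4, Il4, Il5, Il13 and Ccr8 reached the mean of 50 only through their Th2 value, so the limit itself fixed their direction. Ptgdr2, a prostaglandin D2 receptor of human Th2 cells, was near 0 in both (1.04 against 0).

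Markers of other cells also differed, beside 4.96% of all members 2-fold or more higher in CD8 and 8.61% in Th2 cells. Of 9 B cell markers that were members, 8 were 2-fold or more higher in the Th2 library: Cd79a, a signalling chain of the B cell receptor, was at 11.4 in CD8 and 113 in Th2 cells and Igkc, the kappa light chain constant region, at 90.2 in CD8 and 3540.1 in Th2 cells. The summed level of the list ran from 3511 to 8370.4 in the 4 CD8 libraries and from 12969 to 17448 in the 4 Th2 libraries of the series. The sum does not follow the typical marker: at rest it was 7895 in CD8 and 14420 in Th2 cells (-0.87), while the median of members was -3.20. The 1 member within 2-fold was at -0.35, and Igkc and Cd79a made up little of the CD8 sum. Of the listed B cell markers Pax5, the defining factor, stood at 2.07 against 12.5 (CD8 against Th2), and none was at 0 in either resting library. Antigen-presenting markers were higher in Th2 cells in 4 of 4 members (sums of 806 to 2572 and 5022 to 7489.7), with Cd209a at 0 in both. Among myeloid markers only Emr1, the macrophage antigen F4/80 (1.04 against 259), and Cd68 reached the mean of 50 (sums of 138 to 479 and 498 to 1001), and Csf3r, S100a8 and S100a9 were at 0 in both, while Lyz2 was at 0 in CD8 and 54.5 in Th2 cells. Gamma delta T cell markers went the other way, with 3 of 3 members higher in CD8 cells (sums of 576 to 1697 and 113 to 348). Of the NK cell and ILC markers 3 of 5 members were higher in CD8 cells (Il1rl1, Rora and Klre1), of the Tfh markers 2 of 5 in Th2 cells (Il21 and Cxcr5), of the Th17 markers the single member Il1r1 in Th2 cells, and of the stromal markers the single member Pecam1 in Th2 cells (479 against 1166). Cd79a, Emr1 and other markers below 50 in 1 library were members only through the other library, so the limit itself fixed their direction. No mast cell, basophil, erythroid or platelet marker reached the mean of 50. The part of these cells in the results below was not tested.

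**Figure D1:**
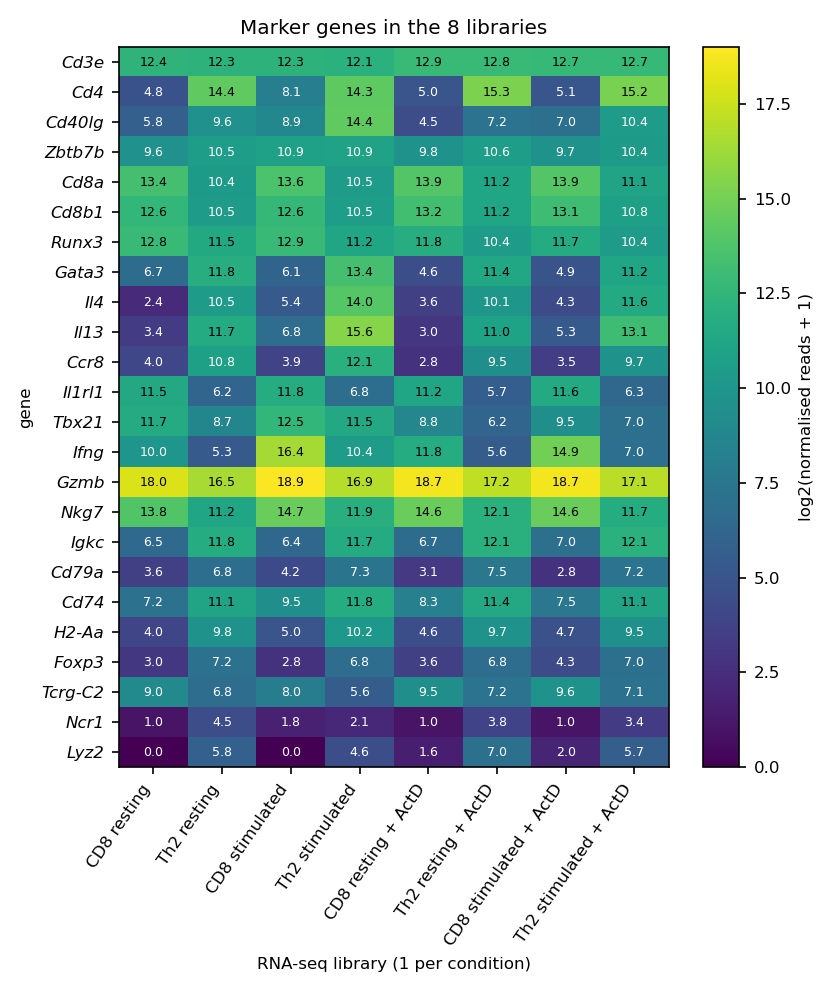
Levels of 24 marker genes, as log2(normalised reads + 1), in the 8 RNA-seq libraries (columns, 1 library per condition; ActD is actinomycin D). Cd4, Gata3, Il4, Il13 and Ccr8 were higher in each Th2 library than in the CD8 library of the same condition, and so were Igkc, Cd79a, Cd74 and H2-Aa. Cd8a, Tbx21, Ifng, Nkg7 and Il1rl1 were higher in each CD8 library.

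Most RNAs were alike. Of the 10902 members 9422 (86.4%) lay within 2-fold, 541 were 2-fold or more higher in CD8 cells (4.96%) and 939 in Th2 cells (8.61%). The median difference was 0.01, with quartiles at -0.34 and 0.31. The imbalance grew with the size of the difference: at 4-fold the counts were 176 and 406, at 16-fold 33 and 164, and at 64-fold 7 and 65. Counting error placed the whole interval past 2-fold for 412 of the CD8-higher and 715 of the Th2-higher genes. Of the 541 and 939 genes, 500 and 867 were protein-coding and 7 and 19 long intergenic RNAs, where all members held 10399 and 131. The CD8-higher genes held 5.69% of all normalised reads in the CD8 library and 2.02% in the Th2 library. The Th2-higher genes held 7.74% in the Th2 and 1.94% in the CD8 library.

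**Figure D2:**
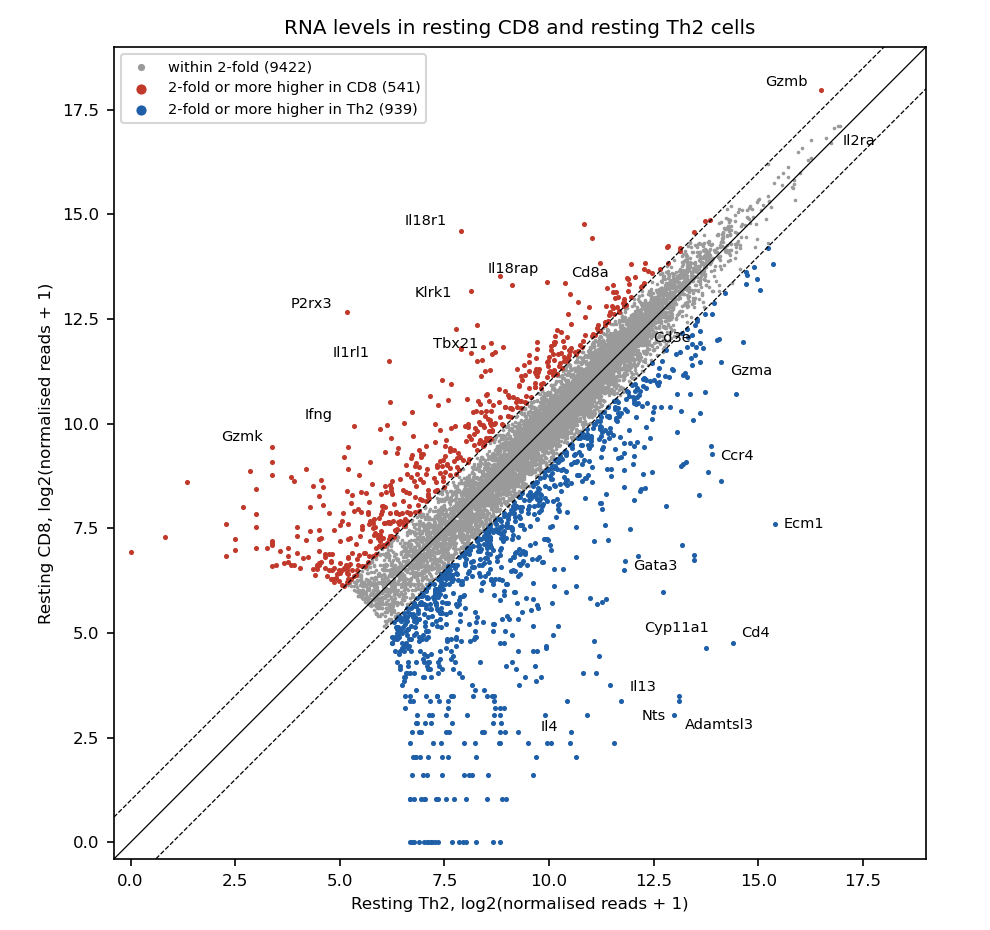
Each of the 10902 genes by its level in resting Th2 cells (horizontal) and resting CD8 cells (vertical), both as log2(normalised reads + 1), with the line of equal level and dashed lines at 2-fold. The 939 Th2-higher genes reach farther from the line, to -9.94 for Adamtsl3, than the 541 CD8-higher genes, to 7.49 for P2rx3.

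At the edge of the mean of 50, the members Gm9828 and C130036L24Rik (both 58.1 in CD8 and 42.0 in Th2 cells) and Fkbp7 (42.5 and 57.6) stood just inside. Zfp14 (41.5 and 58.4), Gm20721 (69.5 and 30.4) and Fbxo27 (28.0 and 71.6) stood just outside, so that genes past 2-fold lie on the far side of this limit too.

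Type 2 cytokines and related products had the largest median difference of the gene lists. All 8 list members that reached the mean of 50 were higher in Th2 cells, with a median of -6.58 against 0.01 over all members (8.61% of all members were 2-fold or more higher in Th2 cells). Il4, Il13, Il5, Csf2, Penk and Cyp11a1 reached the mean of 50 only through their Th2 value, so the limit itself fixed their direction. The list was made with earlier results of these data known, so its count and median are description only. It held related products as well as cytokines, Penk and the enzyme Cyp11a1 among them. Il4 (chromosome 11, 53602982 to 53618669), the cytokine that drives Th2 commitment, was at 4.15 in CD8 and 1439 in Th2 cells (CD8 value of 4 recovered reads), a log2 difference of -8.13 (interval -10.32 to -7.08). Il13, which acts on airway and gut epithelium, was at 9.33 in CD8 and 3356 in Th2 cells (-8.34, -9.62 to -7.56). Il5, the growth factor of eosinophils, was at 12.4 in CD8 and 621 in Th2 cells, with 21.6% of its 50-nt words found in other transcripts. Il10, an inhibitory cytokine, was present on both sides at 1088 in CD8 and 11065 in Th2 cells, 10.2-fold higher in Th2 cells. Il24, a cytokine of the IL-10 family, was at 137 in CD8 and 9312 in Th2 cells. The growth factor Csf2 was at 27.0 in CD8 and 237 in Th2 cells, and Penk, the precursor of enkephalins, at 15.6 in CD8 and 2231 in Th2 cells. Il9 (0 against 3.11), Il3 (4.15 against 6.23), Il6 (0 against 0.779) and Il31 (0 against 1.56) were below the mean of 50 at rest, as were Areg (1.04 against 31.9) and Calca (19.7 against 31.1). Il21, a cytokine of follicular helper cells from another list, was at 56.0 in CD8 and 2015 in Th2 cells.

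Cyp11a1, the list's largest difference, turns cholesterol into pregnenolone and was at 23.8 in CD8 and 13817 in Th2 cells (-9.12, interval -9.84 to -8.59), 556-fold. Akr1c18, a reductase of progesterone and prostaglandins, was at 10.4 in CD8 and 8741 in Th2 cells, and its neighbours Akr1c13 and Akr1c12 were at 91.2 against 1113 and 16.6 against 591 (24.2% and 28.6% shared words). Hsd11b1, which activates glucocorticoids and lies in a run of CD8-higher genes on chromosome 1, was at 616 in CD8 and 126 in Th2 cells. Stra6, a retinol transporter that lies beside Cyp11a1 on chromosome 9, was at 5.18 in CD8 and 1458 in Th2 cells.

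Among the 20 genes with the largest Th2 excess (mean of at least 250, pseudocount of 1) Adamtsl3, an extracellular matrix protein, was at 7.26 in CD8 and 8134 in Th2 cells (-9.94, interval -11.45 to -9.09). Nts, the precursor of neurotensin, was at 9.33 in CD8 and 8747 in Th2 cells, and Pth, parathyroid hormone, at 3.11 in CD8 and 1588 in Th2 cells (3 recovered reads in CD8 cells, interval -11.28 to -7.45). Ecm1, a secreted protein that aids exit of Th2 cells from lymph nodes, was at 195 in CD8 and 43295 in Th2 cells. Low CD8 values make several of these folds imprecise: Efna5, an ephrin ligand, was at 2.07 against 789 with an interval of -11.62 to -6.72, and Plcd4, a phospholipase that shares 29.0% of its 50-nt words with other transcripts, at 1.04 against 505 with -14.23 to -6.44. Timd2 (7.26 against 1916), Rnf152 (12.4 against 2808), Moxd1 (4.15 against 1053), Lgals7 (3.11 against 827), the growth factor Fgf2 (4.15 against 989.5), Peg10 (4.15 against 715) and the protease Bace2 (7.26 against 949.8) complete the set.

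Transcription factors of Th2 cells were higher on that side in 12 of 20 members and lower in 0, with a median of -1.11 (8.61% of all members were higher in Th2 cells). Gata3, the defining factor, was at 104 in CD8 and 3584 in Th2 cells (-5.10, interval -5.41 to -4.83). Maf, an activator of Il4 and Il10, was at 107 in CD8 and 11275 in Th2 cells, and Epas1, a hypoxia-inducible factor, at 312 in CD8 and 12331 in Th2 cells. The phosphatase Dusp6, on the same list, was at 474 in CD8 and 3513 in Th2 cells. Pparg, a lipid-sensing nuclear receptor, was at 524 in CD8 and 4097 in Th2 cells. Irf4 differed less, at 9383 in CD8 and 33647 in Th2 cells (-1.84), and so did Batf (-1.94), Nfil3 (-1.36), Ets1 (-1.15) and the Notch effector Rbpj (-1.06). Stat6, through which IL-4 signals, lay within 2-fold at 3521 in CD8 and 5205 in Th2 cells (-0.56), as did Notch1, Gfi1 and Bhlhe40. Bhlhe41, the close relative of Bhlhe40, was at 5.18 in CD8 and 337 in Th2 cells.

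Th2 surface receptors were higher in Th2 cells in 9 and in CD8 cells in 2 of 14 members (64.3% and 14.3%, against 8.61% and 4.96% of all members, median -2.47). Ccr8, Cd200r1 and Il9r reached the mean of 50 only through their Th2 value, so the limit itself fixed their direction. The count and median are therefore description only. Il4ra, the chain that binds IL-4, was at 1685 in CD8 and 22742 in Th2 cells (13.5-fold). Of the chemokine receptors of skin-homing and type 2 cells, Ccr4 was at 618 in CD8 and 15261 in Th2 cells and Ccr8 at 15.6 in CD8 and 1802 in Th2 cells. The costimulatory Slamf1 was at 1064 in CD8 and 2371 in Th2 cells. Cd200r1, an inhibitory receptor, was at 35.2 in CD8 and 1193 in Th2 cells, the IL-6 receptor chain Il6ra at 68.4 in CD8 and 1105 in Th2 cells, and Il9r at 1.04 in CD8 and 160.4 in Th2 cells (1 recovered read in CD8 cells, interval -12.58 to -4.78). Il6st, the signalling partner of Il6ra, went the other way at 2668 in CD8 and 1004 in Th2 cells. Il17rb was listed at 0 in CD8 and at 36.6 in Th2 cells, below the mean of 50.

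Killer lectin-like and other NK-type receptors, which tune the activation of NK and CD8 cells, had the largest median on the CD8 side among the gene lists shown by function. Of 21 members 13 were 2-fold or more higher in CD8 and 0 in Th2 cells (61.9% and 0%, against 4.96% and 8.61% of all members), with a median of 1.94. Some of them, Klrc2, Klra3 and Klra6 included, reached the mean of 50 only through their CD8 value, so the limit itself fixed their direction. This list too was made with earlier results of these data known, so its count and median are description only. Klrk1 (chromosome 6, 129610323 to 129623864), which encodes the activating receptor NKG2D, was at 9192 in CD8 and 278 in Th2 cells (5.04, interval 4.89 to 5.20). Klrd1, which encodes CD94, was at 5234 in CD8 and 307 in Th2 cells, and its NKG2 partners Klrc1 and Klrc2 were at 1404 against 163 and 405 against 22.6, although 38.6% and 16.3% of their 50-nt words occur in other transcripts. Of the Ly49 receptors, Klra7 was at 987 in CD8 and 216 in Th2 cells, Klra3 at 356 in CD8 and 23.4 in Th2 cells (20.7% shared words), Klra1 at 321 in CD8 and 62.3 in Th2 cells and Klra6 at 172 in CD8 and 18.7 in Th2 cells. Cd96 and Cd160, receptors outside that cluster, were at 2458 against 734 and 317 against 137. The natural cytotoxicity receptor Ncr1, a defining marker of NK cells, was at 1.04 in CD8 and 21.8 in Th2 cells and thus no member, and Klrg1, a marker of terminal effectors, was at 19.7 in CD8 and 26.5 in Th2 cells.

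Genes of the interferon gamma, IL-12 and IL-18 pathways were higher in CD8 cells in 6 and in Th2 cells in 2 of 20 members (30% and 10%, against 4.96% and 8.61% of all members). The other 12 lay within 2-fold, and the median was -0.09. Ifng, the cytokine itself (chromosome 10, 118441047 to 118445892), was at 993 in CD8 and 39.7 in Th2 cells (4.61, interval 4.24 to 5.08), with 25.9% of its exonic length overlapped by another annotated gene and 19.9% shared words. The receptor chain for IL-12, Il12rb2, was at 14341 in CD8 and 3969 in Th2 cells (40.0% overlapped), whereas Il12rb1 was within 2-fold (2235 against 3949). The chains of the interferon gamma receptor split: Ifngr1 was at 9664 in CD8 and 2653 in Th2 cells and Ifngr2, the signalling chain, at 22.8 in CD8 and 782 in Th2 cells (-5.04, interval -5.78 to -4.49). Jak2, the kinase bound to Ifngr2, was at 3974 in CD8 and 25452 in Th2 cells, 6.40-fold higher in Th2 cells, while Jak1 lay at 13724 against 13809. Tnf and Lta were within 2-fold, and Ltb was at 2896 in CD8 and 1305 in Th2 cells.

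Transcription factors of CD8 and type 1 cells were divided, 9 higher in CD8 and 4 in Th2 cells of 24 (37.5% and 16.7%, against 4.96% and 8.61% of all members). Tbx21, which encodes T-bet, was at 3351 in CD8 and 417 in Th2 cells (3.00, interval 2.87 to 3.14). Hopx, a homeodomain protein of effector cells, was at 3626 in CD8 and 343 in Th2 cells, Rora at 1635 in CD8 and 359 in Th2 cells, Irf8 at 3960.4 in CD8 and 1121 in Th2 cells and Zfp683, which encodes the tissue residency factor Hobit, at 320.4 in CD8 and 75.5 in Th2 cells. Runx3, which silences Cd4 in CD8 cells, was at 7138 in CD8 and 2913 in Th2 cells (1.29) and Runx1, from the list of lineage commitment genes, at 418 in CD8 and 1869 in Th2 cells (-2.16). Eomes, the relative of T-bet, was at 283 in CD8 and 246 in Th2 cells (0.20, interval -0.04 to 0.44). Zbtb7b, the factor of CD4 commitment, was at 789 in CD8 and 1496 in Th2 cells (-0.92), within 2-fold. The 4 on the Th2 side were Tcf7, a factor of memory and stem-like cells, at 584 in CD8 and 3218 in Th2 cells, Id2 at 2826 in CD8 and 12409 in Th2 cells, Bach2 at 952 in CD8 and 2818 in Th2 cells and Ikzf3 at 4279 in CD8 and 10272 in Th2 cells. Id3, the other inhibitor of E proteins, was at 135 in CD8 and 59.9 in Th2 cells.

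The remaining genes of the 20 with the largest CD8 excess were of mixed function. P2rx3 (chromosome 2, 84998583 to 85037462), an ATP-gated ion channel best known from sensory neurons, was at 6465 in CD8 and 35.0 in Th2 cells (7.49, interval 7.11 to 7.98). Ms4a4b, a tetraspanning protein of T cells, was at 11728 in CD8 and 456 in Th2 cells, and Plac8 at 28075 in CD8 and 1815 in Th2 cells. Ly6c2, a surface marker of activated CD8 cells, was at 4906 in CD8 and 216 in Th2 cells, whereas its neighbour Ly6c1 was at 5.18 in CD8 and 195 in Th2 cells, with 14.5% and 32.8% of their 50-nt words found in other transcripts. Chl1, an adhesion molecule of neurons, was at 545 against 9.34, the actin bundler Pls1 at 484 against 17.1, Wnt10b at 1463 against 72.4, Arhgap29 at 692 against 35.8, malic enzyme Me1 at 591 against 33.5 (28.3% shared words), Endou at 937 against 60.7, xanthine dehydrogenase Xdh at 3606 against 237 and the interferon-inducible Mndal at 1002 against 69.3 (19.6% shared words).

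**Figure D3:**
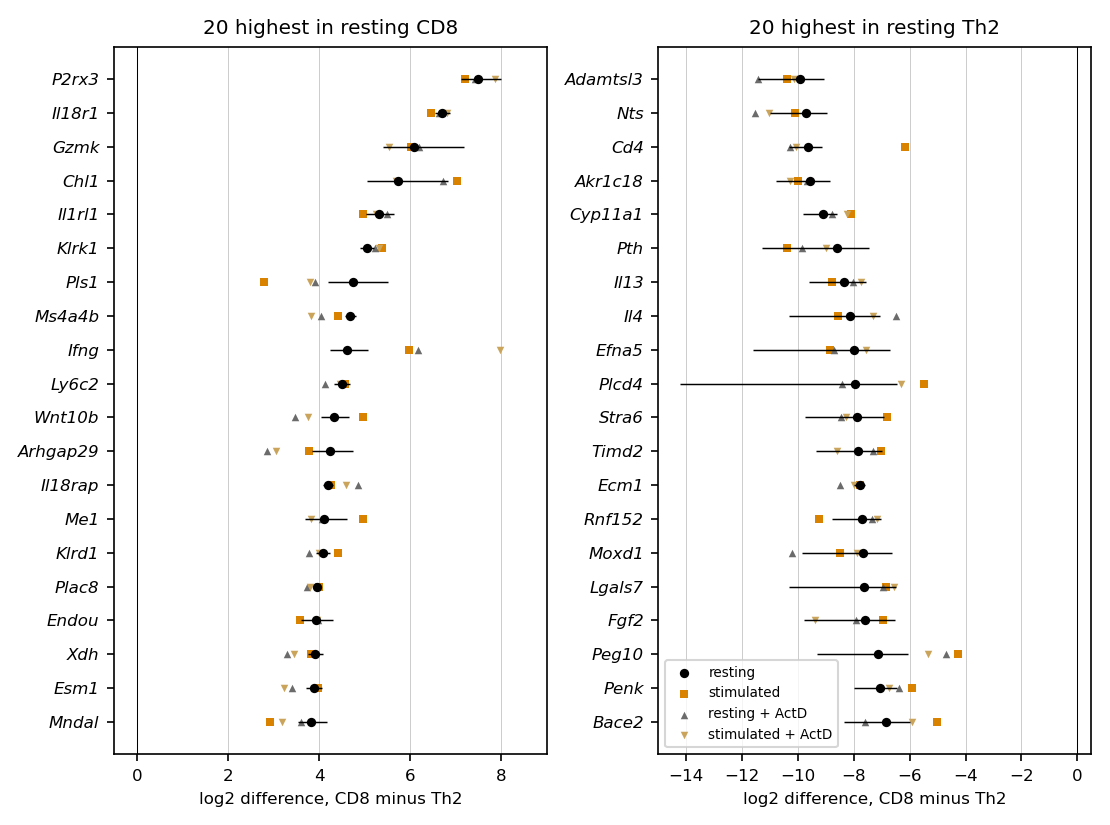
Log2 difference, CD8 minus Th2, of the 20 genes with the largest CD8 excess (left) and Th2 excess (right) at rest, among named genes with a mean of at least 250. Black circles are the resting pair with the 95% counting interval, and other symbols are the stimulated pair and the pairs with actinomycin D (ActD). The points of each gene lie on the same side of 0 in all 4 pairs, and Cd4 stands at -6.15 in the stimulated pair against -9.64 at rest.

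Granzymes were higher in CD8 cells in some members and in Th2 cells in others. Gzmb, the main granzyme of killer cells, was at 255366 in CD8 and 92569 in Th2 cells (1.46, interval 1.45 to 1.47). Gzmk was at 696 in CD8 and 9.34 in Th2 cells (6.07, 5.40 to 7.18). Gzma, a tryptase that also acts outside the granule pathway of granzyme B, was at 2845 in CD8 and 17761 in Th2 cells (-2.64, -2.70 to -2.59), 6.24-fold higher in Th2 cells. Gzmd, Gzme and Gzmg, which lie in 1 cluster with Gzmb on chromosome 14, were at 18.7 against 322, 10.4 against 158 and 6.22 against 111, with 19.8 to 21.9% of their 50-nt words found in other transcripts. Gzmc and Gzmf, between them and Gzmb, were within 2-fold (6301 against 4241 and 63.2 against 64.6). Prf1, perforin, was at 1981 in CD8 and 1274 in Th2 cells (0.64). Fasl, a death ligand, was at 1041 in CD8 and 91.1 in Th2 cells, the granule protein Nkg7 at 14758 in CD8 and 2391 in Th2 cells, the protease Ctsw at 2479.9 in CD8 and 385 in Th2 cells Crtam, an adhesion receptor of activated CD8 cells, at 201 in CD8 and 71.6 in Th2 cells and Rab27a, which docks granules, at 4441 in CD8 and 1852 in Th2 cells. Srgn, the proteoglycan that packs granules, was at 14379.7 in CD8 and 41862 in Th2 cells and the cathepsin inhibitor Cst7 at 4455 in CD8 and 10903 in Th2 cells, both higher in Th2 cells. Of 28 members of the cytotoxic list 7 were higher in CD8 and 6 in Th2 cells (25% and 21.4%, against 4.96% and 8.61% of all members), with a median of 0.37.

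The IL-1 receptor family on chromosome 1 switched direction along the chromosome. Il1r2, a decoy receptor of IL-1 (chromosome 1, 40074079 to 40125231), was at 290.3 in CD8 and 4153 in Th2 cells (-3.83) and its neighbour Il1r1, the signalling receptor, at 10.4 in CD8 and 209 in Th2 cells (-4.21). Il1rl2, named here for its place next in order, was at 292 in CD8 and 229 in Th2 cells (0.35). The following genes were all higher in CD8 cells. Il1rl1 (chromosome 1, 40429570 to 40465415), which encodes the IL-33 receptor ST2 and is commonly used as a Th2 marker, was at 2876 in CD8 and 71.6 in Th2 cells (5.31, interval 5.03 to 5.64). Il18r1 (chromosome 1, 40465552 to 40500854), the IL-18 binding chain, was at 24751 in CD8 and 237 in Th2 cells (6.70, 6.54 to 6.87), 104-fold. Il18rap (chromosome 1, 40515362 to 40551705), the accessory chain, was at 10140.4 in CD8 and 555 in Th2 cells (4.19, 4.08 to 4.30). The Il1rl1 excess in CD8 cells was 4.96 in the stimulated pair and 5.49 and 5.25 in the pairs with actinomycin D. Those of Il18r1 were 6.46, 6.63 and 6.81.

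The up to 250 bases before the most upstream RefSeq start (GRCm38.p6, written 5′ to 3′ on the strand of the gene, annotated exons left out) are shown for the 3 adjacent genes that were higher in CD8 cells and for Il4 and Il13, higher in Th2 cells, because each set moved as a block of neighbours. Capitals mark matches, on either strand, to AGATAA (the GATA motif), AGGTGTGA (T-box), TGTGGTT (RUNX), TTCNNNGAA (STAT) or TTCNNNNGAA (the wider STAT motif, preferred by STAT6). No match overlaps another in these sequences.
Il1rl1, chr1:40429320-40429569, plus strand: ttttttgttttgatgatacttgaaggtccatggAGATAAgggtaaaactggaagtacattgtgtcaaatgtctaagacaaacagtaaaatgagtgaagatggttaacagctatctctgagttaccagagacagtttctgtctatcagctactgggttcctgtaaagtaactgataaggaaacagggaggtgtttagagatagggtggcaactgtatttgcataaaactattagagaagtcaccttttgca
Il18r1, chr1:40465416-40465551, plus strand: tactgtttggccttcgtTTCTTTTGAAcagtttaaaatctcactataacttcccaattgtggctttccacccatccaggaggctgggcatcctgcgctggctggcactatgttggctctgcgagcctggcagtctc
Il18rap, chr1:40515112-40515361, plus strand: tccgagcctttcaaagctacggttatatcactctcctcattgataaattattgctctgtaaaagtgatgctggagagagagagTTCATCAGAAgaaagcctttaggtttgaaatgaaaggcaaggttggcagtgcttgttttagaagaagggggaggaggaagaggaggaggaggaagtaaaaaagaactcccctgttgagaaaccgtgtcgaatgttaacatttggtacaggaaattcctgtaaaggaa
Il4, chr11:53618670-53618915, minus strand: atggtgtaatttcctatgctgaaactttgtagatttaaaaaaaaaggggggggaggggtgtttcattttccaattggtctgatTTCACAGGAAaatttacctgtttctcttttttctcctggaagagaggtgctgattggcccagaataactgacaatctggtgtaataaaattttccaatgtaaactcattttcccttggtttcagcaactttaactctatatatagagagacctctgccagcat
Il13, chr11:53634703-53634952, minus strand: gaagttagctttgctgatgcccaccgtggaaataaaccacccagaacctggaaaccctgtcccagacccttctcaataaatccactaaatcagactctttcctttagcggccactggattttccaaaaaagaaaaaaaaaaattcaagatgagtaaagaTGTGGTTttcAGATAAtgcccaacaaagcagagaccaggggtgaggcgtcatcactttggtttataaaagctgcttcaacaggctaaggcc

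Along these sequences, Il1rl1 held a GATA motif 217 bases before its start, and Il13 held a RUNX motif at 91 and a GATA motif at 81 bases before its own. The wider STAT motif was found at 167 bases before Il4 and also, among the genes higher in CD8 cells, at 119 bases before Il18r1 and 167 before Il18rap. How common such matches are was read from RefSeq promoters of 300 bases (250 before to 50 after the start), 180 promoters of 128 genes 4-fold or more higher in CD8 cells, 389 of 289 genes 4-fold or more higher in Th2 cells, 10510 of the 8206 members that had one, and 32851 of all genes. In these sets the wider STAT motif occurred in 8.89%, 4.88%, 5.41% and 6.95%, the GATA motif in 7.22%, 9.51%, 6.24% and 11.2%, the RUNX motif in 7.78%, 6.17%, 3.80% and 5.27%, the narrower STAT motif in 9.44%, 6.94%, 7.16% and 8.30%, and the T-box motif in 2.22%, 1.54%, 0.837% and 1.28%. A match is a run of letters and not a bound site.

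Other chromosome neighbours also stood together. Taking members in chromosome order, 17 runs of 3 or more adjacent genes were all 2-fold or more higher in CD8 cells and 42 in Th2 cells. Of all members 4.96% and 8.61% were so, and how many runs these shares alone would give was not tested. Some runs hold nested loci, such as Gm20705 within Foxp1 and Gbp9 within Gbp8, which may share reads. The longest CD8 run held 11 genes of the killer receptor cluster on chromosome 6, from Klre1 to Klra1. Cxcr2 and Cxcr1, chemokine receptors best known from neutrophils, were at 645 against 66.2 and 482 against 35.8 beside Rufy4 (265 against 23.4) and Tns1 (1546 against 262). Aim2, a DNA sensor, lay in a run with the related Pyhin1, Mndal and Ifi203 (in that order 2405 against 851, 556 against 168, 1002 against 69.3 and 801 against 74.0). The metallothioneins Mt1, Mt2 and Mt3, which bind zinc, were at 1978 against 898, 1884 against 803 (45.8% shared words) and 419.9 against 103.

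On the Th2 side, 2 genes beside Il4 and Il13 on chromosome 11 that encode no cytokine were also higher in Th2 cells, and a shared control was not tested. Kif3a, a kinesin of cilia, was at 462 in CD8 and 5605 in Th2 cells and Sept8, a septin, at 319 in CD8 and 2632 in Th2 cells. Rad50, the repair gene between Il13 and Il5 and named for that place, was at 3384 in CD8 and 6693 in Th2 cells (-0.98), just within 2-fold, and Irf1 beyond Il5 at 2393 in CD8 and 2209 in Th2 cells. Lif and Osm, related cytokines on the same chromosome, were at 396 against 17561 and 277 against 2398 in a run of 6 genes. Il10 and Il24 were adjacent on chromosome 1 with Faim3 (74.6 against 239.8). Tnfrsf4 (OX40) and Tnfrsf18 (GITR) were at 1671 against 10624 and 1679.5 against 8489. Satb1, a chromatin organiser, was at 11341 in CD8 and 32186 in Th2 cells and headed the longest run, 8 genes, of which the other 7 were clone-named loci. Of these loci RP24-146B4.3, RP24-146B4.2 and RP24-490B17.7 lie within the bounds of Satb1 and RP24-490B17.3 overlaps its edge. They may therefore share reads with Satb1, and the runs count overlapping loci as adjacent genes. Immunoglobulin constant genes made further runs, among them Ighg1 at 4.15 in CD8 and 2974 in Th2 cells and Ighe, which was at 0 reads in CD8 and 401 in Th2 cells, at least 129-fold higher against a floor of 3 reads. H2-Aa, H2-Ab1 and H2-Eb1, chains of MHC class II, were at 14.5 against 887, 555 against 1166 and 44.6 against 649. Immunoglobulin and class II genes moved with the B cell and antigen-presenting markers given above, whose part was not tested.

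**Figure D4:**
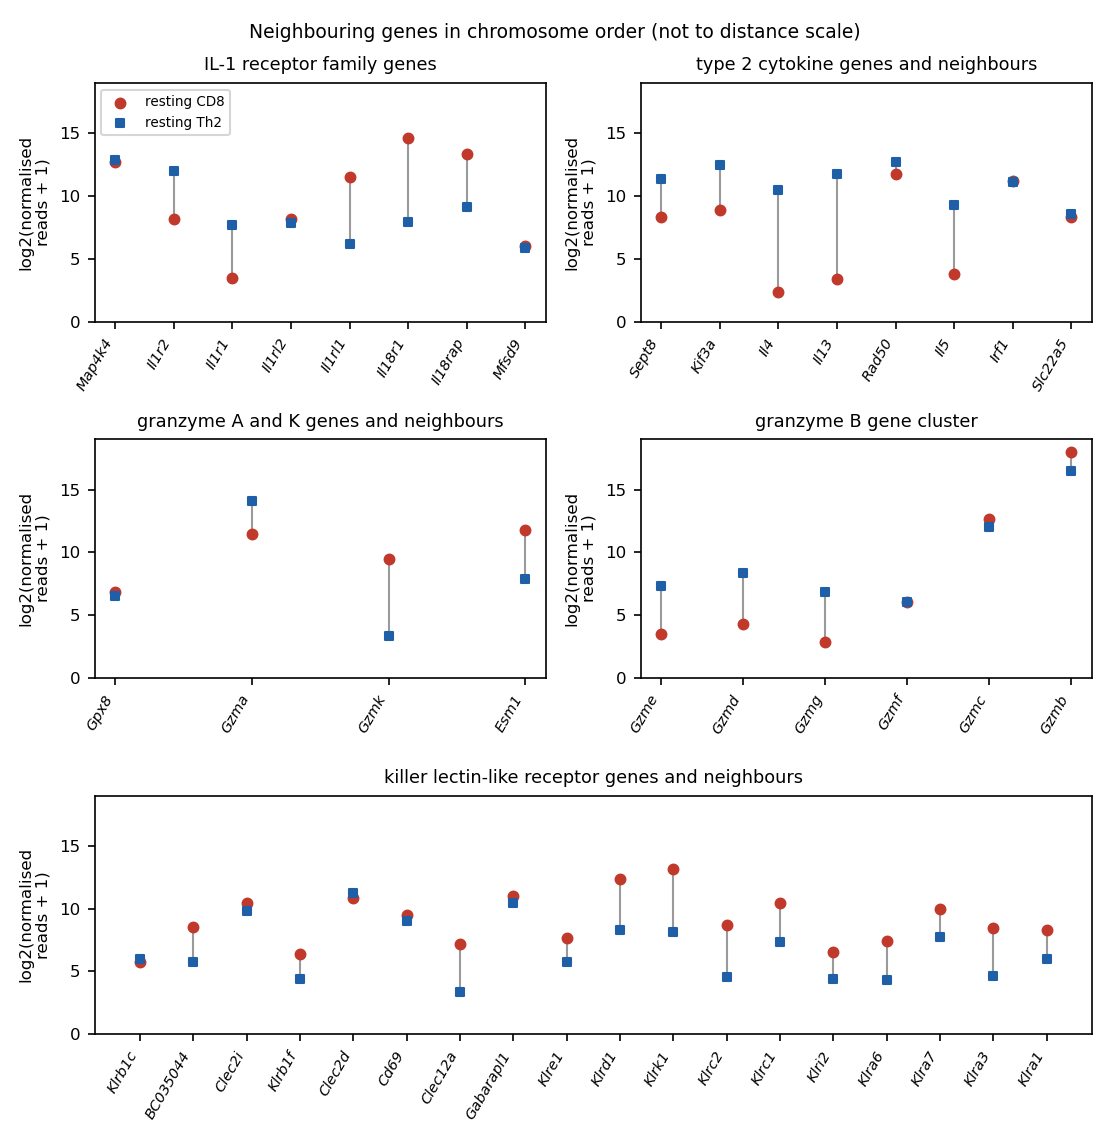
Levels, as log2(normalised reads + 1), of members of 5 gene neighbourhoods in chromosome order (not to distance), with a circle for resting CD8 and a square for resting Th2 cells. Along the IL-1 receptor family the higher library changes from Th2 (Il1r2, Il1r1) to CD8 (Il1rl1, Il18r1, Il18rap), and among granzymes Gzma and Gzmd, Gzme and Gzmg were higher in Th2 while Gzmk and Gzmb were higher in CD8 cells.

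The list of other cytokine receptor chains, which also holds Il4ra, Il9r, Il6ra, Il6st, Il1r1, Il1r2 and Il1rl1 given above, had 2 higher in CD8 and 9 in Th2 cells of 24 (8.33% and 37.5%, against 4.96% and 8.61% of all members). Il10ra, the ligand-binding chain for IL-10, was at 587 in CD8 and 3370.4 in Th2 cells. The chains of the IL-2 receptor were within 2-fold, Il2ra at 136727 in CD8 and 115463 in Th2 cells, Il2rb at 36405 in CD8 and 28237 in Th2 cells and Il2rg at 4269 in CD8 and 7762 in Th2 cells. Csf2rb, the common chain for IL-3, IL-5 and GM-CSF, was at 3.11 in CD8 and 121 in Th2 cells. The activin receptor Acvr2a was at 86.1 in CD8 and 369 in Th2 cells and Tgfbr3, a coreceptor for TGF-beta, at 1345 in CD8 and 2727 in Th2 cells.

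Chemokine and trafficking receptors had 6 higher in CD8 and 7 in Th2 cells among 22 list members (27.3% and 31.8%, against 4.96% and 8.61% of all members). The list did not hold Cxcr1 and Cxcr2, whose CD8 excesses (3.71 and 3.27) are given above with their neighbours. In CD8 cells the inflammatory receptors Ccr2, Cxcr3 and Cxcr6 were higher, at 3525 against 839, 1861 against 732 and 10323 against 3869, and so were Gpr183 (966 against 345), which senses oxysterols, and Gpr18 (1349.8 against 489). In Th2 cells Ccr1 was at 103 in CD8 and 926 in Th2 cells, Cxcr4 at 1508 in CD8 and 4144 in Th2 cells, Cxcr5, the receptor for entry into follicles, at 21.8 in CD8 and 128 in Th2 cells, and the prostaglandin E2 receptors Ptger2 and Ptger4 at 136 against 1046 and 636 against 1303. Of the receptors for lymph node traffic, Ccr7 was at 1868 in CD8 and 3333 in Th2 cells and S1pr1, which governs exit, at 3288 in CD8 and 2052 in Th2 cells, both within 2-fold. Few chemokines were members: Ccl22, a ligand of Ccr4, was at 45.6 in CD8 and 754 in Th2 cells, and 2 of 5 were higher in Th2 cells.

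Adhesion molecules included 3 higher in CD8 and 7 higher in Th2 cells of 29 (10.3% and 24.1%, against 4.96% and 8.61% of all members). The list did not hold the integrin chains Itga7 (49.8 in CD8 against 836 in Th2 cells) and Itgb5 (62.2 against 575). Both stood in runs of Th2-higher neighbours, and no integrin chain stood in a CD8-higher run. The integrin chain Itgb3 showed the largest integrin difference, 528 in CD8 and 9358 in Th2 cells, whereas Itga4, part of a receptor for entry into inflamed tissue, was at 9802 in CD8 and 4678 in Th2 cells. On the Th2 side also stood Itgax (24.9 against 99.7), Itga2 (94.3 against 294), Itga3 (254 against 628) and the tetraspanin Cd81 (979 against 2386), and on the CD8 side Itga1, a collagen receptor (89.2 against 30.4). Itgae, which holds T cells in epithelium and is familiar from CD8 cells, was higher in Th2 cells at 28.0 in CD8 and 217 in Th2 cells.

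Costimulatory and inhibitory receptors and their ligands were higher in Th2 cells in 15 and in CD8 cells in 4 of 35 (42.9% and 11.4%, against 8.61% and 4.96% of all members, median -0.36). Besides OX40 and GITR these were Tnfsf8, the ligand of CD30, at 263 in CD8 and 7119 in Th2 cells, Cd40lg, the helper signal to B cells, at 54.9 in CD8 and 785 in Th2 cells, Tnfsf11 (RANKL) at 84.0 in CD8 and 635 in Th2 cells, Btla at 1450.4 in CD8 and 4459 in Th2 cells, Cd200 at 855 in CD8 and 2930.5 in Th2 cells and Tigit at 1547 in CD8 and 3656 in Th2 cells. The remaining ones were the death domain receptor Tnfrsf25 (20.7 against 208), CD30 itself (Tnfrsf8, 12019 against 27304), the ligands Tnfsf14 (53.9 against 229.7) and Tnfsf4 (297 against 957), and Cd86 (17.6 against 97.3), Pdcd1lg2 (236 against 866) and Cd274 (648 against 1326), ligands of CD28 and PD-1. Higher in CD8 cells were Nt5e, the ectoenzyme CD73, at 517 in CD8 and 95.0 in Th2 cells, Cd80 at 1466 in CD8 and 684 in Th2 cells, Cd160, given above, and 4632428N05Rik, the gene of the inhibitory ligand VISTA, at 2342 in CD8 and 1161 in Th2 cells. Cd28, Icos, Ctla4, Pdcd1 and Havcr2 were within 2-fold, with Ctla4, which competes with CD28, at 24238 in CD8 and 18330.4 in Th2 cells and Pdcd1, which encodes PD-1, at 908 in CD8 and 1075 in Th2 cells.

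The T cell receptor complex and its proximal signalling had 5 of 40 higher in CD8 and 3 in Th2 cells (12.5% and 7.50%, against 4.96% and 8.61% of all members, median -0.03). The CD8-higher members were the kinase Txk (229 against 84.9) and restraints on signalling: the phosphatases Ptpn22 (11587 against 4229) and Ptpn6 (4482 against 2187), the ubiquitin ligase Cblb (8321 against 3222) and the adaptor Sla2 (1331 against 534). The Th2-higher members were the adaptor Trat1 (185 against 1594), the kinase Tec (718 against 1494) and the Ras activator Rasgrp1 (8872 against 18728).

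Interferon-induced genes were mixed, 4 higher in CD8 and 8 in Th2 cells of 34 (11.8% and 23.5%, against 4.96% and 8.61% of all members, median -0.57). The guanylate-binding proteins Gbp3, Gbp7 and Gbp5, adjacent on chromosome 3, were at 3221 against 738, 7080.0 against 1974 and 1885 against 809.7, while on chromosome 5 Gbp9 was at 497 against 2069 and Gbp6, whose 50-nt words all occur in other transcripts, at 389 against 834. Iigp1, an immunity-related GTPase, was at 261 in CD8 and 64.6 in Th2 cells. Genes of the RNA sensing and type I interferon response, Isg15 (29.0 against 117), Ifit1 (32.1 against 95.0), Ddx58 (545 against 1610.1), Ifih1 (257 against 635) and Xaf1 (71.5 against 501), were higher in Th2 cells. Immediate-early genes numbered 3 and 6 of 28 (10.7% and 21.4%): Fos was at 11.4 in CD8 and 298 in Th2 cells and Egr2 at 30.1 in CD8 and 549 in Th2 cells, with Egr1, Dusp6, Ier3 and Atf3 also higher in Th2 cells (76.7 against 209, 474 against 3513, 317 against 881 and 286 against 1084). Higher in CD8 cells were Nr4a2 (234 against 80.2), Dusp2 (2478 against 1101) and Jund (1037 against 417, 52.6% of its exonic length overlapped by other genes).

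Among quiescence and homing genes 2 were higher in CD8 and 6 in Th2 cells of 22 (9.09% and 27.3%, against 4.96% and 8.61% of all members, median -0.12). Foxp1, which holds naive cells at rest, was at 3086 in CD8 and 1021 in Th2 cells, and Tob1, another restraint on proliferation, at 751 in CD8 and 349 in Th2 cells. Higher in Th2 cells were Klf2 (64.3 against 329), which drives homing receptor genes, its relative Klf3 (52.9 against 174), Slfn2 (2229 against 10088) and Dapl1 (34.2 against 90.3), beside Tcf7 and Satb1. Of 23 members of the survival and death list 5 were higher in CD8 and 2 in Th2 cells (21.7% and 8.70%) and 16 lay within 2-fold (median 0.03). Higher in CD8 cells were Fasl, given above, and Bid (999 against 340.2), Pmaip1 (3225 against 1179.5), Bmf (582 against 221) and Bbc3 (266 against 115), which promote cell death, and higher in Th2 cells were Bcl2 (6298 against 15105) and Bcl2l1 (1163 against 3262), which prevent it. Of the regulatory T cell markers, Foxp3, the defining factor, was at 7.26 in CD8 and 146 in Th2 cells (31.5% of its exonic length overlapped by other genes), Ikzf4 at 192 in CD8 and 2601 in Th2 cells, Gpr83 at 8.29 in CD8 and 453 in Th2 cells, and Ikzf2 in the other direction at 2879 in CD8 and 309 in Th2 cells.

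Lists of general cell functions are given beside 4.96% and 8.61% of all members past 2-fold. Of 50 DNA replication genes 0 were past 2-fold (median 0.16), of 49 mitosis genes 1, Cdc25b (1739 against 3753), of 15 heat shock genes 0 and of 26 glycolysis genes 1 in each direction: the lactate transporter Slc16a1 (6175 against 2780.2) and Ldhb (109 against 322). Of 38 sterol and fatty acid synthesis genes 3 were higher in CD8 cells, Hmgcs1 (19075 against 7153), Idi1 (146 against 60.7) and Elovl6 (6312 against 3005), and 1 in Th2 cells, Hsd17b7 (1365 against 4771). Of 28 genes of amino acid stress and transport 4 were higher in CD8 and 2 in Th2 cells (14.3% and 7.14%). Those higher in CD8 cells were the transporters Slc7a5, Slc7a11 and Slc7a3 (14663 against 7313, 517 against 188 and 1917 against 622) and asparagine synthetase Asns (8084 against 3563), while the stress factors Atf3 (286 against 1084) and Ddit3 (262 against 735) were higher in Th2 cells. MHC class I processing had 1 of 19 past 2-fold, H2-Q6 (7727 against 3547, 35.0% shared words). In the MYC network 1 of 12 was higher in CD8 cells, Mxd1 (997 against 479), and 1 in Th2 cells, Mxd4 (951 against 2111), while Myc was at 3854 against 4069.5.

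RNA-binding proteins are the subject of the GCLiPP experiments. Of 45 general RNA-binding proteins 0 were past 2-fold, and of 25 that bind AU-rich elements or govern decay, 1 was higher in CD8 cells, Zc3h12b (69.5 against 31.9), and 2 in Th2 cells, Arid5a (2230.1 against 7458), which stabilises cytokine mRNAs, and Auh (2107 against 5054), shares of 4% and 8% beside 4.96% and 8.61% of all members. Zfp36, which encodes the decay factor tristetraprolin, was at 722 against 708, and the Roquin gene Rc3h1 at 4421 against 3262. Of the PIM kinases Pim3 was at 322 in CD8 and 821 in Th2 cells (-1.35), while Pim1 and Pim2 were at 5084 against 6966 and 3013 against 2990.4. Among 16 genes that the study names, chosen partly on these samples, 1 was higher in CD8 cells (Cd8b1) and 4 in Th2 cells (Cd4, Pim3, Ier3 and the hypoxia factor Hif1a).

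**Figure D5:**
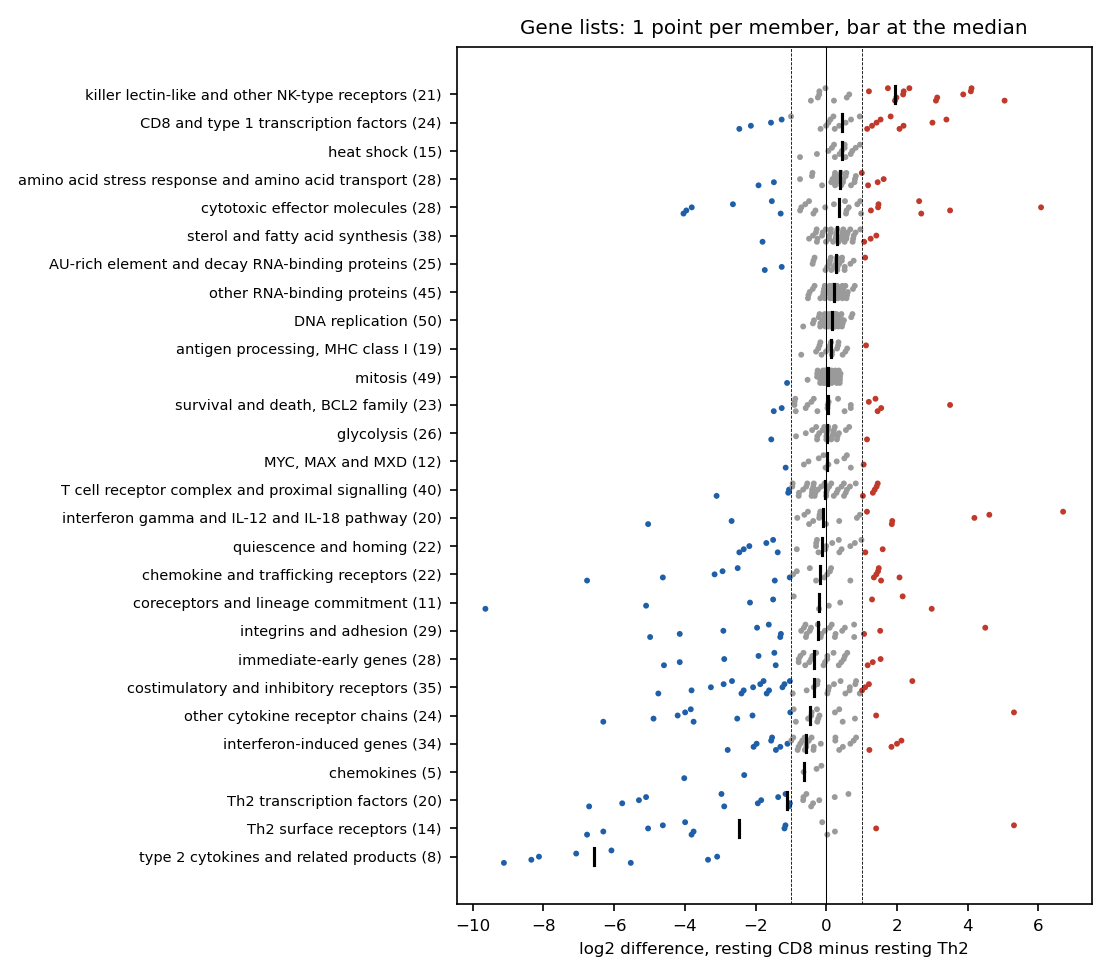
Log2 difference, resting CD8 minus resting Th2, of the members of 28 gene lists (number of members in brackets), 1 point per gene and a bar at the median, with dashed lines at 2-fold. The type 2 cytokines lie wholly left of the dashed lines (median -6.58), the NK-type receptors mostly to the right (median 1.94), and DNA replication, heat shock and general RNA-binding proteins within them.

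GCLiPP peaks, sites where proteins were cross-linked to RNA, were set beside the RNA levels by gene name. The pooled list of peaks named at least 1 peak for 42.0% of 500 protein-coding genes 2-fold or more higher in CD8 cells, 49.4% of 867 higher in Th2 cells and 64.4% of 9032 within 2-fold, beside 62.1% of all 10399 protein-coding members. This describes 1 list pooled over both cell types. Peak calling in the study required a minimum read depth, so a peak can depend on RNA level. Levels were not matched between these sets. Peaks that the authors' names tie to CD8 cells (253) fell on 136 members, of which 5 were 2-fold or more higher in CD8 and 7 in Th2 RNA. Those tied to Th2 cells (111) fell on 86 members, 0 of them 2-fold higher in CD8 and 4 in Th2 RNA. These shares, 3.68%, 5.15%, 0% and 4.65%, stand beside 4.96% and 8.61% over all members.

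The other pairs of CD8 and Th2 libraries share no library with the resting pair, though whether they share cultures is not stated in the sources used here. Of the 541 genes higher in resting CD8 cells, 404 (74.7%) were 2-fold or more higher in CD8 cells also when stimulated, where 7.48% of all members were, 408 (75.4%) in resting cells with actinomycin D, where 5.47% were, and 393 (72.6%) in stimulated cells with the drug, where 5.84% were. Of the 939 genes higher in resting Th2 cells, 671 (71.5%), 696 (74.1%) and 689 (73.4%) were so in these pairs, against 9.17%, 7.87% and 8.56% of all members. In all 4 pairs 314 (58.0%) and 534 (56.9%) were past 2-fold the same way, and 54 and 111 were past it at rest alone. Ifng was at 4.61 at rest and 5.98 when stimulated, Gata3 at -5.10 and -7.24, Il5 at -5.53 and -10.92, and Tbx21 at 3.00 and 1.04. Past 2-fold in the opposite direction in the stimulated pair were 2 of the CD8-higher genes, Cxcr3 and Iigp1, and 8 of the Th2-higher genes. The difference between the resting and the stimulated pair was not tested.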

How the data were processed

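RNA-seq values were taken from the deposited table of signal values per gene for 8 mouse T cell libraries, 1 per condition. Per the study's methods and the labels the authors selected RNA with oligo-dT, made stranded libraries and aligned reads with STAR to mm10. The sources used here name no counting tool, annotation or tool version and do not say whether counting was stranded. Although length-scaled values are described in the methods, all values of a library were whole multiples (within 0.01 read) of 1 step. The authors' signal was therefore read as counts over a single size factor for each library, and whole reads were recovered from it. Libraries held 24154849 to 31042504 reads. Another deposited table, which repeats these values and adds fold changes of the authors' own, was not used. The deposited peak list gives a score per peak, called by the authors in 3′ UTRs on pooled GCLiPP libraries. Only its peak names were used. Columns of other samples numbered 0.

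Genes with a mean of at least 50 in the 2 resting libraries were compared as log2(value + 1). With 1 library per group no test was made. Intervals are exact conditional Clopper-Pearson intervals (95%) on recovered reads, PCR copies included, and cover counting error only. A gene at 0 reads was given a floor of 3 reads in that library. Genes were named if among the 20 largest differences in each direction (mean of at least 250, predicted models and receptor or immunoglobulin segments left out), if past 2-fold or defining in a gene list, if in a run of 3 or more adjacent members past 2-fold the same way, or if next to the limit of 50. Members and lists were chosen with earlier results of these data known. Shared 50-nt words and exonic overlap came from GENCODE M21, and promoters from RefSeq (GRCm38.p6). Both shares are printed for some genes only, so a gene without them is not thereby free of shared reads. Fold thresholds, pseudocounts, minimum means and scalings (total, TMM of edgeR 4.0.16, median of ratios, ribosomal genes) were varied. Some items are not reported here. The steps were tested on simulated data. Python 3.11.15 with pandas 2.3.3 and scipy 1.17.1 was used.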

Additional observations from a re-analysis of the deposited data

Results flagged for a closer look

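Of the genes past 2-fold at rest, 10 were past 2-fold in the opposite direction in the stimulated pair. With 1 library per condition the difference between the pairs was not tested, and apart from Cxcr3 and Iigp1 these genes were chosen after their values were seen. Cxcr3, the receptor for interferon-induced chemokines, was at 1861 in resting CD8 and 732 in resting Th2 cells (log2 difference 1.35) and at 869 and 2094 in stimulated cells (-1.27). Iigp1 was at 261 and 64.6 at rest (2.00) and at 98.4 and 359 in stimulated cells (-1.86). In the other direction, Rtn4rl1 went from -4.21 at rest to 1.30 in stimulated cells and Ica1l from -3.38 to 1.51. Icosl, the ligand of ICOS, went from -1.72 to 1.95, Nol4l from -1.27 to 2.21 and Sipa1l2 from -1.24 to 1.16. Zfp385a went from -1.18 to 1.53, Nipal1 from -1.10 to 1.18 and Sema4c from -1.01 to 1.14. Stimulated levels of Ica1l were very low, at 8.30 in CD8 and 2.27 in Th2 cells. Those of Rtn4rl1 were 54.5 in CD8 and 21.5 in Th2 cells. Whether the stimulated difference of Ica1l exceeds counting error was not tested. In resting cells with actinomycin D the difference had the sign of the resting pair for all 10 genes and passed 2-fold for 6 of them. In stimulated cells with the drug 8 of the 10 had the sign of the resting pair, the exceptions being Zfp385a (0.09) and Sipa1l2 (0.06).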

How the results depend on the processing

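The number of genes past 2-fold followed the limit on low values: the 541 CD8-higher and 939 Th2-higher genes became 2764 and 3306 with no filter, 886 and 1517 at a mean of at least 10, and 316 and 513 at a mean of at least 250. With the limit of 50 kept, 176 and 406 passed 4-fold. Other pseudocounts, other scalings and leaving out predicted genes gave 478 to 545 and 868 to 1045. The scalings moved all differences by -0.08 (library total), -0.04 (TMM), -0.01 (median of ratios) and 0.01 (ribosomal genes). None of 395 named genes changed sign under a pseudocount of 0.5 or 10 or under a scaling, but pseudocounts moved the size: at 10 by up to 3.29 and at 0.5 by up to 1.00 on the log2 scale (Htr1b, at 0 reads in CD8 cells). Scaling to the total took 7 of them below 2-fold: 4632428N05Rik, Elovl6, Itga4, Mxd1, Ppm1j, Ptpn6 and Slc7a5. A pseudocount of 10 took 5 below. Medians of 4 of 46 lists changed sign under the total and 3 under TMM, each within 0.05 of 0 as reported. No paired analysis was possible because each group had 1 library, and for the same reason no replicate could be left out. Depth limits genes with few reads in the lower library, whose intervals span several log2 units.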

Other observations

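Gene families were grouped by symbol after their values were seen, and are given as values beside 4.96% of all members higher in CD8 and 8.61% in Th2 cells. Some of their genes, such as Slfn2, Stat6 and Ms4a1, also stand in the lists above. Of 8 SOCS genes, inhibitors of cytokine signalling, 4 were 2-fold or more higher in resting Th2 cells and 0 in CD8 cells: Cish was at 707 in CD8 and 14941 in Th2 cells, Socs1 at 150.3 and 979, Socs3 at 299.6 and 1859, and Socs2 at 1952 and 6197. The other 4 (Socs4, Socs5, Socs6 and Socs7) were within 2-fold, as were all 7 STAT genes. Of 6 Schlafen genes 3 were higher in Th2 cells, Slfn1 (696 and 4962), Slfn2 (2229 and 10088) and Slfn5 (39.4 and 467), and of 6 Armcx genes on the X chromosome 4 were, with Armcx6 at 242 and 1203 (14.8% shared words). None of 8 Gimap genes, GTPases of lymphocyte survival, was past 2-fold.

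Purinergic receptors parted by member. P2rx3, at 7.49, was joined on the CD8 side by P2ry12, a receptor for ADP, at 1410.0 in CD8 and 322 in Th2 cells, while P2ry1, another ADP receptor, was at 4.15 and 445 and P2rx4 at 302 and 624. P2rx7, which T cells use to sense extracellular ATP and NAD, was at 477 and 916. Ms4a genes other than the B cell gene Ms4a1 (18.7 and 139) were higher in CD8 cells in 4 of 5 members, Ms4a4b, Ms4a4c, Ms4a6b and Ms4a6d, the last at 269.6 and 77.1, with Ms4a6c at 149 and 109.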
